A study of Mus musculus with 2 samples.

Results

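Glycolysis is served in mammals by families of isoenzymes, and the genes followed here encode isoforms of 4 of its enzymes. Of 10 genes listed by symbol, 7 had a row in both libraries among 19454 symbols in all. They are Hk1 and Hk2 for hexokinase, Aldoa and Aldoc for aldolase, Eno2 and Eno3 for enolase, and Pkm for the muscle-type pyruvate kinase. Eno1, Ldha and Ldhb were not analysed here, so the enolase balance below is that of Eno2 against Eno3 and no lactate dehydrogenase balance is given. The rule takes the genes by symbol and uses no measured value.

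The data are UMI counts of spatial transcriptomics, in which barcoded spots on a slide capture molecules from the section above them. A UMI marks 1 captured molecule, and whether that was RNA or a probe for it is not settled by the sources used here. There were 2 libraries of FFPE sections (formalin-fixed, paraffin-embedded), both of nude mice, 1 labelled flat implant and 1 labelled micropillar implant, a surface that carries small posts. Both carry the tissue label bone, and the study as titled concerns surface topography, nuclear shape and the regrowth of bone. Neither the number of animals nor the implant material or time after implantation is stated in the labels, and each group had 1 library, so the libraries are compared without replicates and without a test.

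Hexokinase phosphorylates glucose on entry, aldolase splits the resulting hexose bisphosphate into trioses, enolase makes phosphoenolpyruvate, and pyruvate kinase converts that to pyruvate with a gain of ATP. Hk1 is the main hexokinase of brain, while Hk2 is the insulin-responsive form of skeletal muscle, heart and fat. Aldoa is the aldolase of muscle and of most tissues, and Aldoc is a brain form that is prominent in astrocytes and in cerebellar Purkinje cells. Eno2 encodes the neuron-specific enolase and Eno3 the muscle enolase, whereas Pkm gives splice forms that a count per gene does not separate.

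The annotation places Hk1 on chromosome 10 (62268855 to 62379908, minus strand) and Hk2 on chromosome 6 (82725025 to 82774454, minus strand) of mm10. Aldoa lies on chromosome 7 (126795234 to 126800751, minus strand) and Aldoc on chromosome 11 (78322968 to 78327781, plus strand). Eno2 lies on chromosome 6 (124760053 to 124769673, minus strand), Eno3 on chromosome 11 (70657202 to 70662513, plus strand) and Pkm on chromosome 9 (59656368 to 59679375, plus strand). All 7 are protein-coding genes, and a UMI was counted per gene, so exon, intron or UTR of origin is not resolved. The symbol Aldoa stands on 2 rows, of which the second had 32 and 28 UMIs and was not used, and the near-identical copies Aldoart1 and Aldoart2 had at most 1 UMI.

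The enolase and hexokinase pairs gave the widest differences between brain-marker and muscle-marker spots, and the 250 bases before the transcription start of these 4 genes are therefore shown (RefSeq, GRCm38.p6, 5′ to 3′ on the gene's strand). They lie at chr11:70656926-70657175 (plus strand) for Eno3, chr6:124769674-124769923 (minus strand) for Eno2, chr6:82774455-82774704 (minus strand) for Hk2 and chr10:62379909-62380158 (minus strand) for the most upstream of 2 Hk1 windows in the table. Capitals mark E-boxes (CANNTG) and GC boxes (GGGCGG or, on the other strand, CCGCCC).
Eno3: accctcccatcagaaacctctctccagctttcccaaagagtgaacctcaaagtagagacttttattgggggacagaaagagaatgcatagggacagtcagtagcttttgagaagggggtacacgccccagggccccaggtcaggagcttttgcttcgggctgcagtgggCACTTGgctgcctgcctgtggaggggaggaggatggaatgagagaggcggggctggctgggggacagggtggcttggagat
Eno2: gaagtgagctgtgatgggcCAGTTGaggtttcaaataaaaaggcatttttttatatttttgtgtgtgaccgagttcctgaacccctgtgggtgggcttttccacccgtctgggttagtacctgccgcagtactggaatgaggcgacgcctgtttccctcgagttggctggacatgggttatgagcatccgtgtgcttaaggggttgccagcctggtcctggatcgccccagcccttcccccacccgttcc
Hk2: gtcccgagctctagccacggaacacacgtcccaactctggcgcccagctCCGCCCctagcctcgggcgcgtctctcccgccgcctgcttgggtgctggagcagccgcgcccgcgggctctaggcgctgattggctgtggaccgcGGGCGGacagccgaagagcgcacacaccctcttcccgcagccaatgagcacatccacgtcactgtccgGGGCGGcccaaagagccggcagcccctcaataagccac
Hk1: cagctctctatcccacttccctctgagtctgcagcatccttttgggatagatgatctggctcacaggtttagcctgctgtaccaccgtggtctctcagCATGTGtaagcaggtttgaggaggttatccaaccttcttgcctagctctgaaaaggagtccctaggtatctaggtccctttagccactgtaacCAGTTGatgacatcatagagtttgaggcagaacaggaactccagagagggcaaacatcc
The Eno3 window held 1 E-box and no GC box, the Eno2 window 1 E-box, the Hk1 window 2 E-boxes, and the Hk2 window 3 GC boxes and no E-box. Of all 32851 windows of 250 bases in the table, 66.2% held an E-box and 32.7% a GC box. The other motifs searched on both strands were the MEF2-type CTANNNNTAG, found in 3.20% of all windows and in none of these 4, the HIF core ACGTG, found in 16.6% of all windows and at 2 places in that of Hk2, and TATAAA, found in 12.4% of all windows and at 1 place in that of Eno2. No marked motif overlapped another. These matches describe letters in a window and say nothing of binding.

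Spots with at least 100 UMIs were kept, 2681 of 3161 in the flat library and 3064 of 3303 in the micropillar library, with 2262763 and 3172759 UMIs and medians of 602 and 831 UMIs per spot. Spots were grouped by marker sets that hold none of the 7 genes. Brain-marker spots, with genes such as Snap25 and Slc17a7 above a set level, numbered 1271 and 1581, or 47.4% and 51.6% of kept spots. Among spots with a low brain-set level, 275 and 74 were muscle-marker spots (Acta1, Ckm and others), 346 and 409 skin-marker spots (keratins and others), 33 and 34 marrow-marker spots (granule genes of the myeloid line) and 46 and 64 bone-marker spots. The labelled tissue was thus a small share of the spots, 1.72% and 2.09%, and rested mostly on Bglap, osteocalcin, with 103 and 230 UMIs, while the osteoblast regulator gene Sp7 was at 0 in the bone-marker spots of both libraries. A spot is a small area that can hold several tissues, and 26.5% and 29.4% of kept spots entered no class. Levels are given as CPM, the UMIs of a gene over all UMIs of the summed spots on the usual depth scale, with 95% exact Poisson intervals, and shares with 95% exact Clopper-Pearson intervals. All intervals cover counting error only, and in such sums fewer cells of a type and less RNA per cell cannot be told apart.

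Aldoa had the highest value of the 7 genes when counts were divided by transcript length. Per kb of the longest annotated transcript, Aldoa reached 4737 CPM per kb over all kept spots of the flat library and 4296 CPM per kb in those of the micropillar library. Eno2 followed with 439 and 415 CPM per kb, and Pkm with 417 and 354. Aldoc (101 and 119), Eno3 (54.3 and 22), Hk1 (45.8 and 53.6) and Hk2 (6.89 and 5.32) were lower on this scale. Hk1 and Eno3 change places between the libraries. Eno2 and Pkm are nearest to each other in this order. A length correction assumes capture along the transcript, which the sources used here do not settle. The order of the genes on this scale rests on that assumption.

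**Figure D1:**
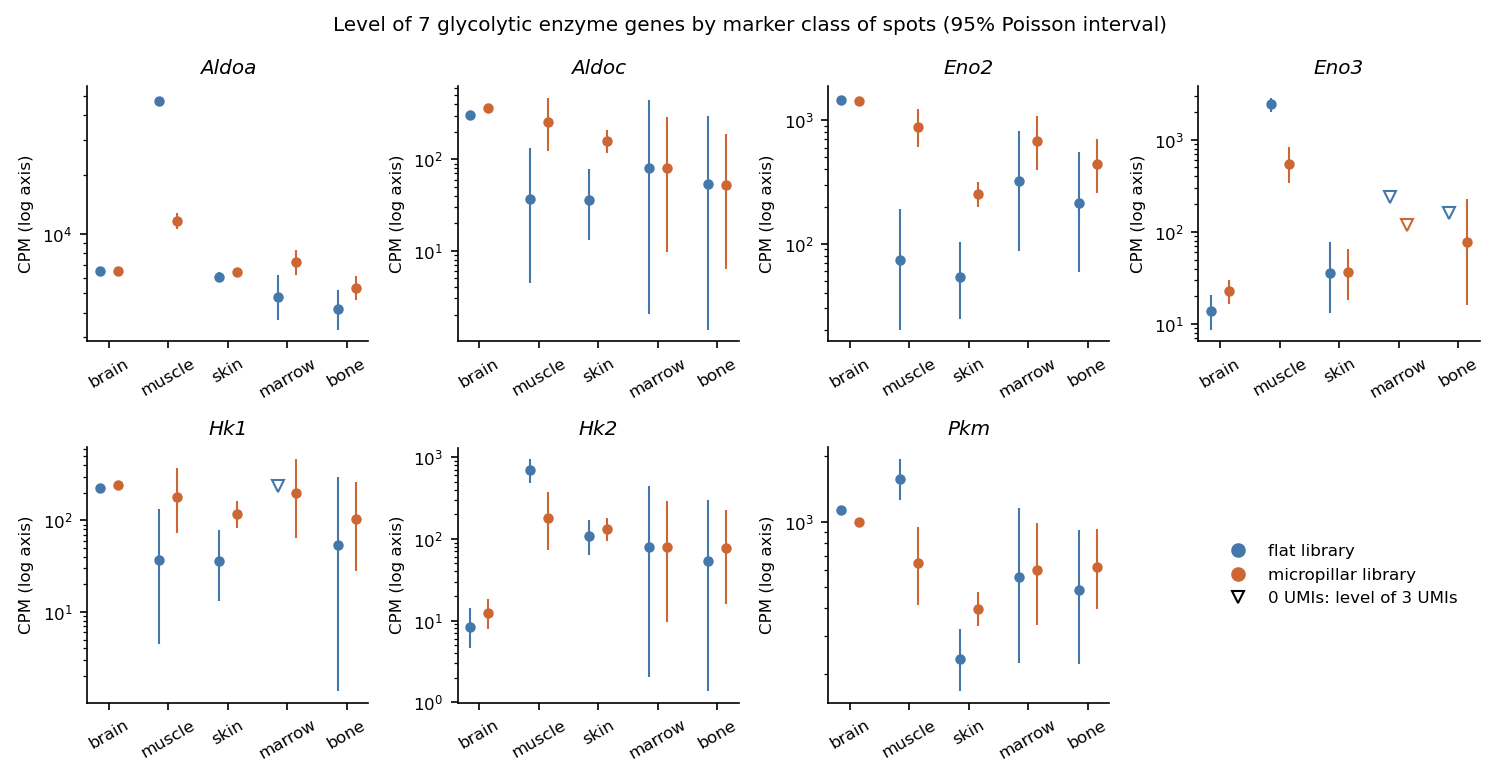
Level in CPM (log axis, a range of its own for each gene) of the 7 genes in the summed spots of each marker class, in the flat (blue) and micropillar (orange) library, with 95% Poisson intervals; open triangles mark 0 UMIs and stand at the level of 3 UMIs. Eno3 and Hk2 are highest in muscle-marker spots in both libraries, Eno2 and Hk1 are highest in brain-marker spots, and Eno3 had no UMI in marrow-marker spots.

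The hexokinase pair differed between brain-marker and muscle-marker spots more in the flat than in the micropillar library. In the flat library Hk1 held most UMIs of the pair in brain-marker and Hk2 in muscle-marker spots. Hk1 had 226 CPM (204 to 250) in brain-marker spots of the flat library and 245 CPM (224 to 267) in those of the micropillar library. It had 37.0 CPM on 2 UMIs and 180 CPM on 7 UMIs in muscle-marker spots. Hk2 ran the other way, with 8.36 CPM (4.57 to 14.0) and 12.3 CPM (7.98 to 18.2) in brain-marker spots and 684 CPM (482 to 943) and 180 CPM (72.5 to 372) in muscle-marker spots. The intervals of Hk2 in brain and muscle do not overlap in either library, and those of Hk1 do not overlap in the flat library only.

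As a share of Hk1 and Hk2 UMIs together, Hk1 made up 96.4% (94.1 to 98.0) of 392 UMIs and 95.2% (93.0 to 96.9) of 521 UMIs in brain-marker spots. In muscle-marker spots Hk1 was 5.13% (0.627 to 17.3) of 39 UMIs in the flat library and 50% (23.0 to 77) of 14 UMIs in the micropillar library. In skin-marker spots it was 25% (9.77 to 46.7) of 24 UMIs and 47.3% (35.6 to 59.3) of 74 UMIs. In brain-marker spots the UMIs of the pair were nearly all Hk1, and skin-marker spots held both genes. Marrow-marker and bone-marker spots had at most 7 UMIs of the pair in either library, too few to place their balance.

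Skin-marker spots had a Hk2 level between those of brain-marker and muscle-marker spots in the flat library, 108 CPM (64.1 to 171), and 131 CPM (93.1 to 179) in the micropillar library. That is 12.9-fold and 10.6-fold above the brain-marker spots. Skin-marker spots were also divided, in a step added after the data were seen, into those richer in follicle keratins (132 and 210 spots) and those richer in epidermal genes (194 and 165 spots). Hk2 had 147 and 131 CPM in the follicle group and 88.2 and 153 CPM in the epidermal group, on 8 to 21 UMIs each, with no order that both libraries share.

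Of the Aldoa and Aldoc UMIs, called aldolase UMIs here, most were Aldoa in every class. Aldoc was highest in brain-marker spots. Aldoc had 305 CPM (279 to 332) and 365 CPM (339 to 392) in brain-marker spots, and 36.0 CPM (13.2 to 78.4) and 158 CPM (116 to 210) in skin-marker spots. In marrow-marker and bone-marker spots it had 1 or 2 UMIs in each library. Aldoc was 4.46% (4.09 to 4.86) and 5.34% (4.97 to 5.72) of aldolase UMIs in brain-marker spots, against 0.0781% (0.00946 to 0.282) and 2.16% (1.04 to 3.93) in muscle-marker spots and 0.592% (0.218 to 1.28) and 2.39% (1.76 to 3.17) in skin-marker spots. The brain share lay above the muscle and skin shares in both libraries with no overlap of the intervals.

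Aldoa varied less between the other classes than it did towards muscle. It had 6520 CPM (6398 to 6644) and 6467 CPM (6357 to 6579) in brain-marker spots and 6049 CPM (5681 to 6434) and 6439 CPM (6155 to 6734) in skin-marker spots. Marrow-marker spots had 4799 and 7194 CPM and bone-marker spots 4148 and 5334 CPM. In muscle-marker spots Aldoa had 47321 CPM (45506 to 49191) in the flat library and 11697 CPM (10645 to 12824) in the micropillar library, 7.26-fold and 1.81-fold above brain-marker spots. Over single muscle-marker spots of the flat library the lowest, median and highest Aldoa values were 0, 51282 and 273333 CPM, and in the micropillar library 0, 10348 and 44444 CPM.

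Between brain-marker and muscle-marker spots, enolase showed an exchange of isoforms in the flat library. The Eno2 share differed by 96.1 points there and by 36.6 points in the micropillar library, against 91.3 and 45.2 points for the Hk1 share. Eno2 had 1462 CPM (1405 to 1521) and 1418 CPM (1367 to 1471) in brain-marker spots, where Eno3 had 13.7 CPM (8.71 to 20.6) and 22.7 CPM (16.6 to 30.3). In muscle-marker spots of the flat library Eno2 had 74.0 CPM on 4 UMIs and Eno3 had 2404 CPM (2009 to 2855) on 130 UMIs. In those of the micropillar library Eno2 had 876 CPM (607 to 1224) on 34 UMIs and Eno3 had 541 CPM (335 to 827) on 21 UMIs. Eno3 was thus 175-fold and 23.8-fold higher in muscle-marker than in brain-marker spots, while Eno2 was well below its brain level in the muscle-marker spots of the flat library and closer to it in those of the micropillar library.

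The share of Eno2 among Eno2 and Eno3 UMIs was 99.1% (98.6 to 99.4) and 98.4% (97.9 to 98.8) in brain-marker spots. It was 2.99% (0.819 to 7.47) in muscle-marker spots of the flat library and 61.8% (47.7 to 74.6) in those of the micropillar library. In skin-marker spots it was 60.0% (32.3 to 83.7) of 15 UMIs and 87.2% (78.3 to 93.4) of 86 UMIs. All 4 and all 17 UMIs of this pair in marrow-marker spots were Eno2, as were 4 of 4 and 17 of 20 in bone-marker spots. Eno1 was not analysed, so these shares do not show which enolase prevailed in a class. Eno3 at 0 in marrow-marker spots allows up to 240 and 120 CPM, so absence is not shown at this depth. Counted per kb of transcript, the Eno2 share in muscle-marker spots was 1.69% and 47.5%, and the Hk1 share 6.51% and 56.3%. These values rest on the same unsettled assumption of capture along the transcript.

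**Figure D2:**
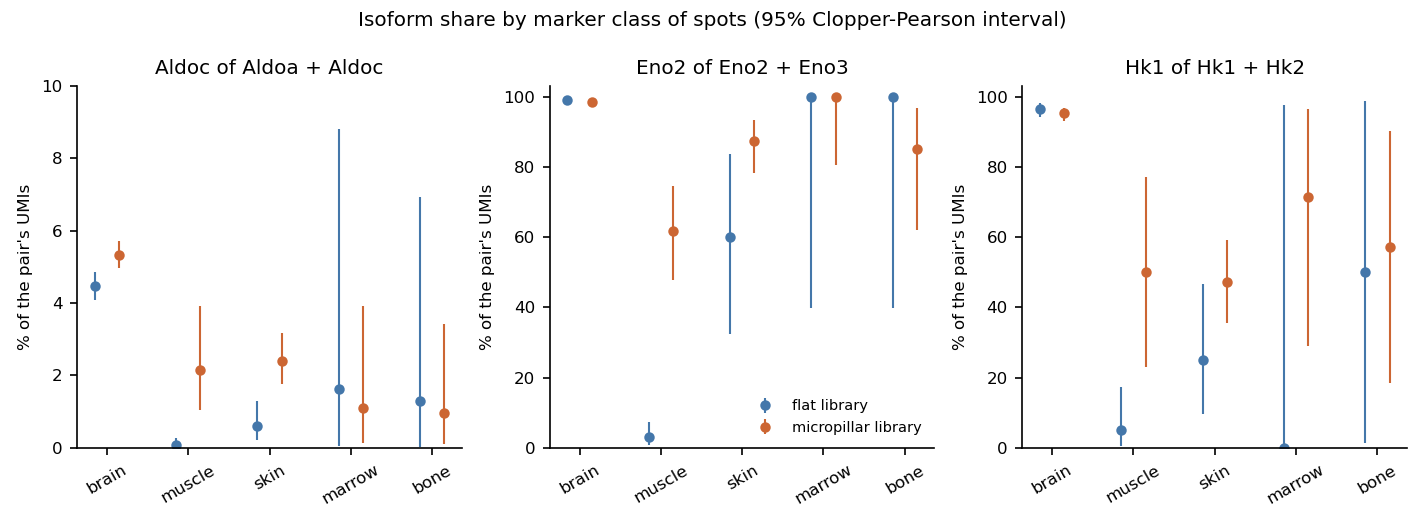
Share of Aldoc among aldolase UMIs (axis to 10%), of Eno2 among Eno2 and Eno3 UMIs, and of Hk1 among Hk1 and Hk2 UMIs by marker class, in percent, with 95% Clopper-Pearson intervals; blue is the flat and orange the micropillar library. All 3 shares are highest or nearly so in brain-marker spots, and muscle-marker spots differ between the libraries, with Eno2 at 2.99% and 61.8%.

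In muscle-marker and skin-marker spots, Eno2 and remaining brain-set RNA were both higher in the micropillar library. Eno2 had 74.0 and 876 CPM in muscle-marker and 54.1 and 252 CPM in skin-marker spots. The brain set had 259 CPM in muscle-marker spots of the flat library and 1469 CPM in those of the micropillar library, and 258 and 718 CPM in skin-marker spots. Per 100 brain-set UMIs there were 13.6 and 15.8 Eno2 UMIs in brain-marker spots and 28.6 and 59.6 in muscle-marker spots. There were 20.9 and 35.0 in skin-marker, 40.0 and 60.7 in marrow-marker and 80.0 and 34.7 in bone-marker spots. The flat values rest on 4 Eno2 UMIs each in muscle-marker, marrow-marker and bone-marker spots and on 9 in skin-marker spots. By these values Eno2 was higher relative to the brain set in each class with a low brain set. Spots with a low brain set that entered no class, 627 and 664 spots, also had higher values, 59.1 and 45.9, so this is not particular to the classes. The choice of these spots for a low brain set bears on this, and its part was not tested. An Eno2 UMI was found in 68.9% and 69.0% of brain-marker spots, in 1.45% and 16.2% of muscle-marker spots and in 2.60% and 11.2% of skin-marker spots. The median depth was 1082 and 1073 UMIs in brain-marker, 164 and 324.5 in muscle-marker and 432.5 and 613 in skin-marker spots.

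The muscle-marker spots of the micropillar library were mixed, and their members differed by how much of the spot was muscle. Of its 74 spots, 27 held under 1% of their UMIs in the muscle set, against 17 of 275 in the flat library. These 27 spots had all 34 Eno2 UMIs, all 10 Aldoc UMIs and all 7 Hk1 UMIs of the class, with a brain-set level of 2219 CPM. Only 9 micropillar spots had at least 5% of their UMIs in the muscle set, against 214 in the flat library, and the 5% limit was chosen after the data were seen.

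In those muscle-rich spots Eno3 had 3146 CPM (2625 to 3741) on 128 UMIs in the flat library and 2184 CPM (1128 to 3815) on 12 UMIs in the micropillar library, which gives -0.53 (-1.52 to 0.33) on the log2 scale. Hk2 had 885 CPM (620 to 1225) on 36 UMIs and 910 CPM (295 to 2123) on 5 UMIs. Eno2 had 2 UMIs and 0 UMIs, where 0 allows up to 546 CPM, and Hk1 had 1 and 0. With the spots so restricted, Eno3 and Hk2 held most UMIs of their pairs in both libraries. The intervals of the library ratios of Eno3 and Hk2 include 0.

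Aldoa and Pkm were lower in the muscle-rich spots of the micropillar library. Aldoa had 59732 CPM (57380 to 62155) and 31483 CPM (26966 to 36540), a log2 ratio of -0.92 (-1.15 to -0.70). Pkm had 1991 CPM (1581 to 2475) and 728 CPM (198 to 1864), the latter on 4 UMIs. The muscle set itself was 13.7% and 9.66% of the UMIs. Per 100 muscle-set UMIs there were 43.7 and 32.6 Aldoa UMIs, 2.30 and 2.26 Eno3 UMIs, and 1.91 and 1.88 UMIs of Pgam2, the muscle phosphoglycerate mutase.

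Along bins of muscle content among all spots with a low brain-set level, the aldolase and enolase genes of muscle were higher in each next bin of the flat library. From under 1% to 1 to 5%, 5 to 10%, 10 to 20% and above 20% muscle-set UMIs, Aldoa had 5272, 12782, 48607, 61546 and 70303 CPM. Eno3 had 30.8, 224, 2522, 3167 and 4687 CPM over the same bins, and the last bin held 16 spots. Hk2 did not keep this order, with 59.7, 0, 573, 1000 and 426 CPM, of which the last value rests on 1 UMI. In the micropillar library Aldoa had 5803, 13744, 26991 and 40782 CPM and Eno3 41.6, 544, 2159 and 2235 CPM in the first 4 bins. Its bins of 5 to 10% and 10 to 20% held 7 and 2 spots, and without those thin bins only the step from the first to the second bin remains in that library. Eno2 ran the other way over the first 2 bins, from 610 to 112 CPM and from 701 to 77.7 CPM, with 1 UMI in the second bin of each library.

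**Figure D3:**
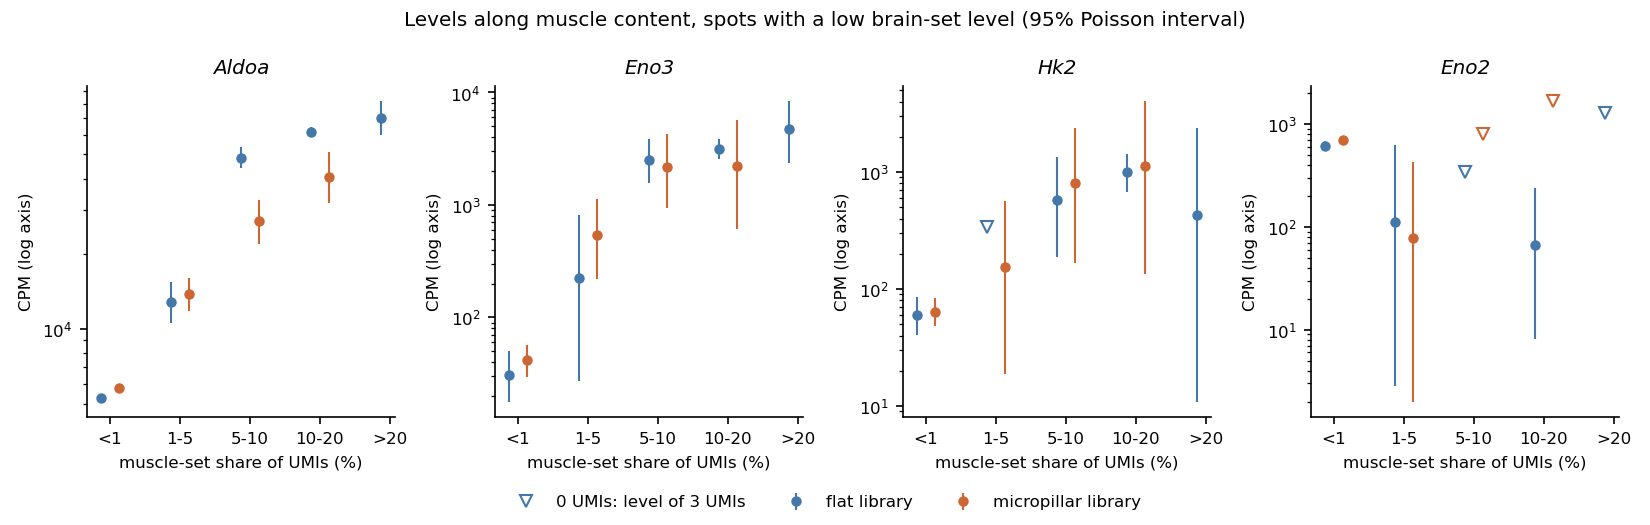
Level in CPM (log axis) of Aldoa, Eno3, Hk2 and Eno2 in bins of the muscle-set share of a spot's UMIs (percent), among spots with a low brain-set level, with 95% Poisson intervals; open triangles mark 0 UMIs at the level of 3 UMIs. Aldoa and Eno3 are higher in bins with more muscle RNA in both libraries, and no micropillar spot lies above 20%.

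Pyruvate kinase did not follow the brain and muscle order of the other families. Pkm had 1133 CPM (1082 to 1185) and 1002 CPM (959 to 1047) in brain-marker spots. In muscle-marker spots it had 1572 CPM (1256 to 1944) in the flat library and 644 CPM (417 to 951) in the micropillar library, above the brain level in 1 library and below it in the other. In skin-marker spots it had 234 CPM (167 to 320) and 399 CPM (331 to 478). These were the lowest values of the 5 classes in both libraries. Marrow-marker spots had 560 CPM (225 to 1154) and 600 CPM (336 to 989). Bone-marker spots had 485 CPM (222 to 920) and 621 CPM (398 to 925). These 2 classes do not differ from each other beyond their intervals. Their intervals also overlap those of skin-marker spots in both libraries, as does that of muscle-marker spots in the micropillar library.

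Counted over the 7 genes, a 2-fold difference from brain-marker spots in the same direction in both libraries was found for 2 higher (Eno3 and Hk2) and 0 lower in muscle-marker spots. Of all 10682 genes with at least 20 UMIs in that comparison, 9.2% were so higher and 5.67% so lower. In skin-marker spots 1 gene was higher (Hk2) and 4 were lower (Aldoc, Eno2, Hk1 and Pkm), with 19.8% and 15.5% of all genes. In marrow-marker spots Hk2 was higher, on 1 and 2 UMIs, and Aldoc and Eno2 were lower, with 8.89% and 2.84% of all genes. In bone-marker spots Hk2 was higher, on 1 and 3 UMIs, and Aldoc, Eno2 and Hk1 were lower, with 10.9% and 4.85% of all genes. Because a class sum of 0 was read as 3 UMIs, a gene at 0 there was counted lower only if its brain level was high. The shares of all genes counted lower in marrow-marker and bone-marker spots are limited by this. The 2 libraries repeat the contrast of tissues but are not replicates of an implant. Aldoc had only 1 and 2 UMIs in marrow-marker and again in bone-marker spots. Hk1 had 1 and 4 UMIs in bone-marker spots, and the intervals of its log2 ratios include 0 in both libraries. These counts and those of Hk2 in marrow-marker and bone-marker spots are too small to carry a fold. With each spot thinned to 250 UMIs, no gene was counted higher in marrow-marker or bone-marker spots, 1 was counted lower in the former and 0 in the latter. With the brain limit at 0.25 times the summed level, 3 genes were counted lower in muscle-marker spots. The 2 genes counted higher there were 3 in 5 of 7 alternatives.

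Markers of other tissues were present in these classes. Marrow-marker spots had a skin-set level of 15278 and 13389 CPM and an erythroid level of 45993 and 4676 CPM, and 24 of 33 and 24 of 34 of them had a UMI of the early granule genes. Bone-marker spots had a muscle-set level of 2693 and 2330 CPM and a skin-set level of 7487 and 2434 CPM. Their part in the levels of the 7 genes was not tested. Many spots lay near a limit. Of all kept spots, 209 and 356 had a brain-set level within 20% of the brain limit, on either side of it. Among bone-marker spots, 22 of 46 and 25 of 64 had the minimum of 2 marker UMIs.

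The other genes of the pathway were counted in the same way, with the shares of all genes given above. Among 22 tested genes of 4 lists (other isoforms, other glycolytic steps, glucose and lactate transport, and the control of phosphofructokinase and pyruvate entry), 3 were 2-fold higher in muscle-marker than in brain-marker spots in both libraries, against 9.2% of all genes. These were Pgam2, Slc2a4, the insulin-responsive glucose transporter, and Slc16a1, a monocarboxylate transporter, the last on 1 and 2 UMIs, too few for a fold. Pgam2 had 2034 and 412 CPM in muscle-marker spots against 19.7 and 23.7 CPM in brain-marker spots, and Slc2a4 had 832 and 258 CPM against 4.18 and 5.92 CPM. Pfkp and Pgam1, the platelet-type phosphofructokinase and the brain-type mutase, were lower there. In skin-marker spots 4 of 22 were higher (Slc2a1, Slc2a4, Slc16a1 and Pfkfb4) and 4 lower (Ldhd, Pfkl, Pfkm and Slc2a3), which is near the 19.8% and 15.5% of all genes. In marrow-marker spots 1 of 21 was higher (Pfkfb4) and 1 lower (Pgam1), and in bone-marker spots 1 was higher (Pfkfb4) and 3 lower (Pfkp, Pgam1 and Pdk1). Pfkfb4 had 1 to 3 UMIs in each of these sums and Pdk1 had 1 UMI in bone-marker spots of either library, too few for a fold. Other isoforms of these enzyme families were scarce over the whole section. Eno4 had 9 and 1 UMIs, Hk3 13 and 24, Hkdc1 12 and 8, Pklr 0 and 4, Ldhd 57 and 76, and Ldhc none.

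The genes most alike in pattern were sought over 10 sums, the 5 classes in 2 libraries, by Pearson's r of log2(CPM + 20) among 9281 genes. For Eno3 they were Pgam2 (r = 0.99), Hrc (0.98) and Cox6a2 (0.98), and for Hk2 Ltbp4 (0.94), Car3 (0.90) and Sh3glb1 (0.89). For Eno2 they were Gria1 (r = 1.00), 6330403K07Rik (0.98) and Gpm6a (0.98), and for Aldoc Mpv17l (0.97), Frmd5 (0.97) and Camk1g (0.96). Between the 7 genes themselves r was 0.90 for Aldoa with Eno3, 0.84 for Aldoc with Eno2 and -0.68 for Eno2 with Hk2. The 10 sums share 2 libraries and differ in depth, and the values describe them only.

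Within brain-marker spots the brain isoforms differed with the cell type markers of the spot. In the 25% of brain-marker spots with the highest astrocyte-set level (318 and 395 spots), Aldoc had 479 CPM (398 to 572) and 454 CPM (382 to 534), against 273 CPM (247 to 302) and 348 CPM (321 to 377) in the other brain-marker spots. The log2 ratio was 0.81 (0.50 to 1.11) and 0.38 (0.11 to 0.65). In the same spots Eno2 had 1135 CPM (1008 to 1274) and 1107 CPM (994 to 1230), against 1520 CPM (1457 to 1586) and 1476 CPM (1419 to 1534), a log2 ratio of -0.42 (-0.60 to -0.24) and -0.41 (-0.58 to -0.25). Aldoc was higher and Eno2 lower in astrocyte-rich spots of both libraries, with no overlap of intervals. Aldoc was 7.46% (6.23 to 8.84) and 6.80% (5.76 to 7.96) of aldolase UMIs in these spots and 3.96% and 5.07% in the others.

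The 25% of spots with the highest oligodendrocyte-set level gave the same direction for both genes, with Aldoc at 401 and 459 CPM against 289 and 348 CPM, and Eno2 lower by log2 ratios of -0.41 and -0.28. The astrocyte-rich and oligodendrocyte-rich spots shared 146 of 318 and 167 of 395 spots, so these are not separate results. The 25% of spots with the highest neuron-set level had Eno2 log2 ratios of 0.12 and 0.11, with intervals that reach just below 0. Aldoc there had a log2 ratio of 0.05 (-0.22 to 0.31) in the flat library and -0.48 (-0.73 to -0.23) in the micropillar library. Astrocyte-rich spots were shallower, with a median of 714 and 665 UMIs against 1364 and 1231.5, and the part of depth was not tested.

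Hk1, Aldoa and Pkm varied less with the astrocyte set, with log2 ratios of 0.10 and -0.07 for Hk1, -0.16 and -0.07 for Aldoa and -0.04 and -0.19 for Pkm. In the oligodendrocyte-rich spots Hk1 had log2 ratios of -0.23 (-0.71 to 0.21) and -0.55 (-0.98 to -0.14). Eno3 and Hk2 had 4 to 12 UMIs in each of these groups of spots, and the intervals of all their ratios include 0.

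**Figure D4:**
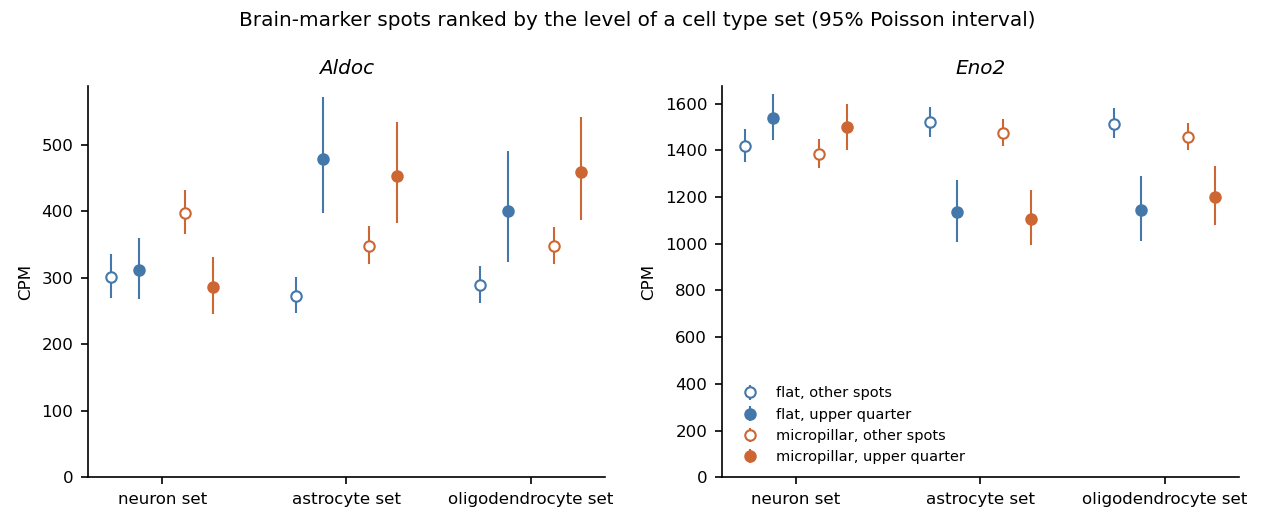
Level in CPM of Aldoc and Eno2 in brain-marker spots, for the 25% of spots with the highest level of a cell type set (filled) and the other brain-marker spots (open), in the flat (blue) and micropillar (orange) library, with 95% Poisson intervals. In the astrocyte-rich spots Aldoc is higher (479 and 454 CPM against 273 and 348) and Eno2 lower than in the other spots.

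Between the libraries as a whole, 6 of the 7 genes differed by less than 2-fold, and Eno3 was lower in the micropillar library. Eno3 had 84.9 CPM (73.3 to 97.7) on 192 UMIs in the flat library and 34.4 CPM (28.2 to 41.4) on 109 UMIs in the micropillar library, 2.47-fold lower, with a log2 ratio of -1.30 (-1.66 to -0.96). That 1 of 7 genes stood past 2-fold compares with 1.55% of all 8077 genes with at least 20 CPM in 1 library, and 0.681% were so lower. The intervals of Eno3 in the libraries do not overlap.

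The classes that held the Eno3 UMIs differed between the libraries. Muscle-marker spots held 67.7% of the Eno3 UMIs of the flat library and 19.3% of those of the micropillar library. Without muscle-marker spots, a step added after the data were seen, Eno3 had 28.1 CPM (21.5 to 36.0) on 62 UMIs and 28.1 CPM (22.5 to 34.6) on 88 UMIs, with a log2 ratio of 0.00044 (-0.48 to 0.49). Then 0 of 7 genes stood past 2-fold, with 1.07% of all genes. In spots of at least 500 UMIs the Eno3 ratio was 0.079, while averaging the CPM of single spots, which weighs shallow spots like deep ones, gave -2.34 for Eno3 and -1.31 for Hk2. The muscle genes Pgam2 and Slc2a4 had log2 ratios of -1.38 and -1.35 over the whole section and of -0.13 and 0.11 without muscle-marker spots.

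The other 6 genes lay between the 5th and the 95th percentile of all genes. Aldoa had 7338 CPM (7227 to 7451) and 6655 CPM (6565 to 6745), a log2 ratio of -0.14 (-0.17 to -0.11), and 0.05 (0.02 to 0.08) without muscle-marker spots. Aldoc had 281 CPM (259 to 303) and 333 CPM (313 to 353), 0.24 (0.10 to 0.39). Hk1 had 196 CPM (178 to 215) and 229 CPM (213 to 247), 0.23 (0.06 to 0.40). The brain forms Aldoc and Hk1 were thus somewhat higher in the micropillar library, with intervals above 0. The brain form Eno2 was slightly lower, with an interval below 0, and in brain-marker spots alone Hk1 had 0.12 (-0.08 to 0.31). The sign of the Aldoa ratio differs with and without the muscle-marker spots.

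Hk2 had 38.0 CPM (30.4 to 46.9) and 29.3 CPM (23.7 to 35.9), a log2 ratio of -0.37 (-0.81 to 0.07), and 0.31 (-0.22 to 0.84) without muscle-marker spots. Eno2 had 1227 CPM (1182 to 1273) and 1161 CPM (1124 to 1199), a log2 ratio of -0.08 (-0.15 to -0.01). Pkm had 1015 CPM (974 to 1058) and 861 CPM (829 to 894), a log2 ratio of -0.24 (-0.32 to -0.16), and -0.21 (-0.30 to -0.13) without muscle-marker spots. Only the ratio of Hk2 had an interval that includes 0. All genes tested had a median log2 ratio of 0.04, with a 5th percentile of -0.45 and a 95th percentile of 0.59, and 55.4% were higher in the micropillar library, against 2 of 7 members, whose median was -0.14.

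**Figure D5:**
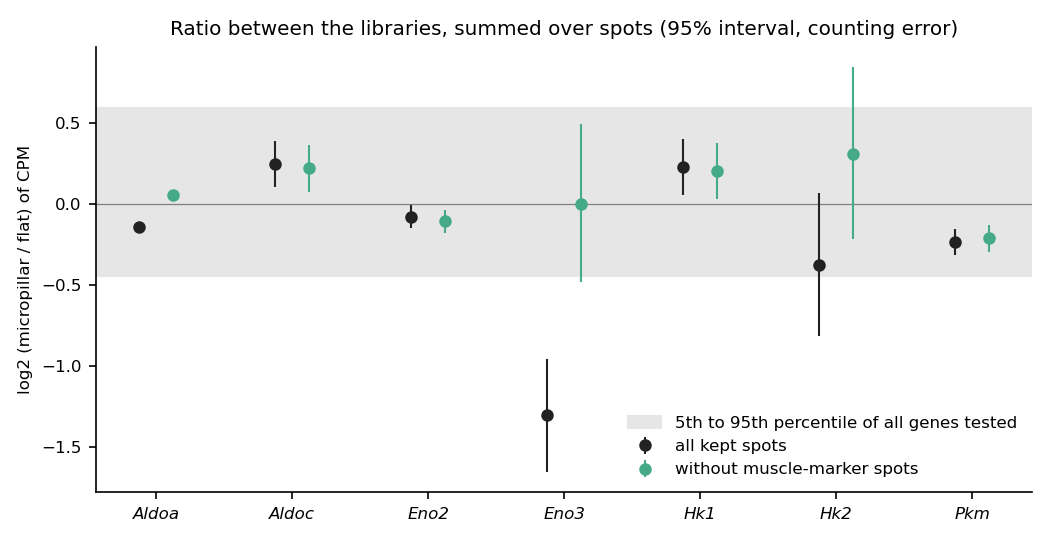
Log2 ratio of CPM, micropillar over flat, of each gene over all kept spots (black) and without muscle-marker spots (green), with 95% intervals for counting error; the grey band spans the 5th to the 95th percentile of all genes tested (-0.45 to 0.59). Eno3 alone lies outside the band over all kept spots (-1.30) and lies at 0.00044 without muscle-marker spots.

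Within classes, the libraries were close in brain-marker spots. In brain-marker spots 0 of 7 genes stood past 2-fold, against 5.05% of all genes with at least 20 UMIs, and only Aldoc (0.26, 0.09 to 0.42) and Pkm (-0.18, -0.27 to -0.09) had log2 ratios whose intervals exclude 0. In muscle-marker spots, of 5 genes with at least 20 UMIs, Eno2 was past 2-fold higher and Aldoa, Eno3, Hk2 and Pkm were past 2-fold lower in the micropillar library, where 24.8% and 21.6% of all genes were so higher and lower. In the muscle-rich spots described above, the intervals of Aldoa and Pkm lay below 0 and those of Eno3 and Hk2 included it.

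In skin-marker spots 3 of 6 genes were past 2-fold higher in the micropillar library, against 10.5% of all genes. They were Aldoc, with a log2 ratio of 2.13 (0.90 to 3.65), Eno2, with 2.22 (1.22 to 3.40), and Hk1, with 1.70 (0.44 to 3.24), on 6 to 9 UMIs in the flat library. These are the 3 brain isoforms, and the brain set was also higher in these spots, at 258 and 718 CPM. A set of gland genes also stood apart, at 0 and 1711 CPM in skin-marker spots and at 0 and 3143 CPM in muscle-marker spots, and the part of either set in these ratios was not tested. Pkm, which is not one of them, was also higher in skin-marker spots of the micropillar library but within 2-fold, with a log2 ratio of 0.77 (0.24 to 1.33). Aldoa and Hk2 had skin ratios of 0.09 (-0.02 to 0.20) and 0.28 (-0.56 to 1.17).

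In marrow-marker and bone-marker spots 1 of 3 genes with at least 20 UMIs, Eno2, was past 2-fold higher in the micropillar library, against 18.7% and 9.51% of all genes. Its log2 ratios were 1.09 (-0.53 to 3.12) and 1.03 (-0.59 to 3.06), on 4 and 17 UMIs in each case, and both intervals include 0. Aldoa had log2 ratios of 0.58 (0.16 to 1.03) in marrow-marker and 0.36 (-0.02 to 0.76) in bone-marker spots, and Pkm 0.10 (-1.28 to 1.63) and 0.36 (-0.80 to 1.65). In bone-marker spots the intervals of all 3 ratios include 0, at a depth of 18565 UMIs in the flat and 38622 UMIs in the micropillar library. With 1 library per implant, a difference between implants cannot be told from one between sections at any depth.

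Over the whole section the other pathway genes had no member past 2-fold higher. Of 34 measured genes, 25 had at least 5 CPM in 1 library, 11 of them had a ratio above 0, and 3 stood past 2-fold lower, namely Pgam2, Slc2a4 and Hkdc1, the last with -1.07 on 12 and 8 UMIs. Of all 11887 genes with at least 5 CPM in 1 library, 3.39% were so higher and 1.71% so lower. Among the glycolytic steps Gpi1, glucose phosphate isomerase, was the most abundant by count at 1156 and 1122 CPM, and Pfkm had the highest ratio, 0.36 (0.11 to 0.60). Among transporters Bsg, a chaperone of monocarboxylate transporters, had 311 and 319 CPM, and Slc16a1 had the highest ratio, 0.48. Among pyruvate entry genes Pdha1, a subunit of pyruvate dehydrogenase, had 262 and 264 CPM, Pfkfb2 had the highest ratio, 0.51, and Pdk1 the lowest, -0.24. Gapdh had 7 and 11 UMIs and was not read as a level.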

How the data were processed

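The deposited values are raw UMI counts for each gene in each spot, with no normalisation. Space Ranger 2.0.1 made the matrices per the file headers, whereas Cell Ranger 7.2.0 with mm10 is named per the submitters' processing notes and a directional mRNA kit per the labels' protocols. These do not settle the upstream tool. Neither the aligner nor the probe set is given in the sources used here. Positions of spots were not used here.

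Both libraries list 19465 rows, and of 11 symbols on 2 rows the one with more counts was used. Of 19454 identifiers, 19441 matched GENCODE M21, which gave coordinates and lengths. Of the members Eno1, Ldha and Ldhb were not analysed here, so the planned enolase share became Eno2 against Eno3 and no Ldha and Ldhb share was made. Library depth was 2262763 and 3172759 UMIs in kept spots (at least 100 UMIs), where 1 UMI is 0.442 and 0.315 CPM. The libraries share 2135 spot barcodes, which name grid positions, so nothing is shared between cells. No doublet caller was run and no cell-type makeup was estimated.

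A brain-marker spot had a brain-set level of at least 3642 CPM, 0.5 times that of all kept spots, and more brain-set UMIs than UMIs of the other 4 sets. The other spots below that level with at least 2 UMIs of a set joined the muscle, skin, marrow or bone class whose set stood highest against its level over such spots. Members and lists were chosen with earlier results of these data known.

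With 1 library per group no test was run and no p-value is given. UMIs were summed over spots, ratios were taken without a pseudocount, and intervals are 95% exact Poisson or Clopper-Pearson. A count of 0 was read as up to 3 UMIs. All members are named. Of each pathway list, the most abundant gene, those with the highest and lowest ratio at 5 CPM or more, and isoforms of the member families are named, as are the 3 genes most alike for Aldoc, Eno2, Eno3 and Hk2. Genes counted against brain-marker spots are also named, which that rule did not ask for. Some genes that the rule selects are not reported here.

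Alternatives covered scaling (edgeR 4.0.16 TMM factors, DESeq2 1.42.0 size factors), weight and depth of spots, and class limits. Scripts ran in Python 3.11.15 with numpy 2.4.6, scipy 1.17.1 and pandas 2.3.3 and in R 4.3.3, and were tested on simulated data.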

Additional observations from a re-analysis of the deposited data

Results flagged for a closer look

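Spots with under 100 UMIs (480 flat and 239 micropillar) entered no comparison but held some of the 7 genes above the level of 3 UMIs, 4 genes in each library. In the flat library Aldoa had 23181 CPM there, Eno3 959 CPM on 22 UMIs, Pkm 741 CPM and Eno2 392 CPM, where 3 UMIs are 131 CPM. The muscle set had 38824 CPM in these spots, against 3131 CPM in the kept spots of that library. In the micropillar library Aldoa had 8019 CPM, Pkm 652 CPM, and Eno2 and Hk1 456 CPM each, where 3 UMIs are 196 CPM and the muscle set had 3129 CPM. Eno3 had no UMI there.

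Pkm stood on opposite sides of the brain level in the muscle-marker spots of the 2 libraries. Its log2 ratio of muscle-marker over brain-marker spots was 0.47 (0.14 to 0.79) in the flat library and -0.64 (-1.27 to -0.07) in the micropillar library, and the difference was not tested. The muscle set had 106293 CPM in these spots of the flat library and 20662 CPM in those of the micropillar library.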

How the results depend on the processing

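No paired analysis was possible because each group has 1 library, so no replicate could be left out either. Of 337 alternatives, 235 left a value within its interval or a count close to its own, 100 moved it and 2 turned a value past 2-fold, both for the Eno3 library ratio (-1.30), which was 0.079 in spots of at least 500 UMIs and 0.00044 without muscle-marker spots. Among ratios within 2-fold, Aldoa (-0.14) was 0.05 and Hk2 (-0.37) was 0.79 and 0.31 in those settings, and Eno2 (-0.08) was 0.21 by the mean of per-spot CPM. The count of genes past 2-fold between libraries (1) was 2 by the mean of per-spot CPM and 0 in the first 2 settings named. TMM and DESeq2 scaling gave Eno3 -1.36.

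The brain minus muscle share of Aldoc was 4.39 points in the flat library and 5.77 by per-spot means. In the micropillar library it was 3.18, and 5.34 with 4 marker UMIs or a muscle set of 5%, 5.22 with the brain limit at 0.25, 5.16 with spots thinned to 250 UMIs and 5.03 by per-spot means. For Eno2 it was 96.1 in the flat library and 98.3 thinned. In the micropillar library it was 36.6, and 98.4 with 4 marker UMIs or 5% muscle, 84.1 at 0.25, 98.0 thinned and 53.8 by per-spot means. For Hk1 it was 91.3 in the flat library and 96.6 in spots of at least 250 UMIs. In the micropillar library it was 45.2, and 95.2 with 4 marker UMIs or 5% muscle and 92.1 thinned. The muscle-set and muscle-spot settings were chosen after seeing the data.

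Of the counts against brain-marker spots, genes higher in muscle (2) were 3 in 5 of 7 alternatives, and genes lower in muscle (0) were 1 with 4 marker UMIs, overlapping classes or 5% muscle, 2 thinned and 3 at 0.25 or by per-spot means. Genes higher in skin (1) were 2 with overlapping classes. In marrow, genes higher (1) were 0 thinned and genes lower (2) were 1 with 4 marker UMIs, at 0.25 and thinned. In bone, genes higher (1) were 0 with 4 marker UMIs, in spots of at least 250 UMIs and thinned, and 2 with overlapping classes, and genes lower (3) were 0 thinned. Thinning leaves out shallower spots and most UMIs, and the cause of the other shifts was not tested. Marrow-marker and bone-marker spots hold too few UMIs of Aldoc, Hk1, Hk2 and Eno3 to settle a 2-fold difference.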
